A study of Mus musculus with 31 samples.

Results

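The 10 genes of the NF-kB pathway studied here, 4 subunits and 6 inhibitors or feedback genes, were followed through all groups of the RNA sequencing of Panc02, a murine pancreatic adenocarcinoma line. They were chosen by symbol (Nfkb1, Nfkb2, Rela, Relb, Nfkbia, Nfkbib, Nfkbiz, Bcl3, Tnfaip3 and Birc3), and each of the 10 had 1 entry among the 55487 genes of the conditioned-medium table, the 56980 genes of the 2D and 3D culture table and the 56941 genes of the rescue table. All 10 passed edgeR's filter on low counts in every table. In the conditioned-medium experiment, WT Panc02 spheroids in Matrigel were kept in control medium (Ctrl), in medium conditioned by unstimulated bone marrow-derived macrophages (M0-CM), or in medium from macrophages treated with IFNγ and LPS (M1-CM), with 3 samples each. The study's methods describe macrophage media made with L929 cell supernatant and name none for the control medium. In the culture experiment, WT and Cxcl5-/- cells were grown in 2D or as 3D spheroids without macrophage medium, with 3 samples each. In the rescue experiment, all cells were grown in 3D: WT (2 samples), Cxcl5-/- (2 samples), and Cxcl5-/- cells that overexpressed a mutant, stabilized Hif1a (Hif1aOE Cxcl5-/-, 3 samples) or Myc (MycOE Cxcl5-/-, 3 samples) from a retrovirus. Cxcl5 was deleted with a lentiviral CRISPR/Cas9 vector and puromycin selection, and the sources used here do not say whether the line was 1 clone. In the rescue labels each sample carries a differently numbered Panc line, and Panc02 is the name in the study's methods.

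NF-kB is a family of dimeric transcription factors. In resting cells the dimers are held in the cytoplasm by IκB inhibitors or by the ankyrin repeats of their own precursor proteins, and inflammatory receptors free them through the IκB kinase complex in the canonical pathway, or through processing of the Nfkb2 product in the non-canonical pathway. Several genes that the dimers switch on encode brakes on the same pathway, so Nfkbia and Tnfaip3 transcripts are often read as a sign of NF-kB activity, and in pancreatic cancer the pathway is known for driving inflammatory and survival genes.

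Among the members, 4 had a match to the NF-kB consensus site near a transcription start, and the proximal promoters of the 3 whose transcripts are described most closely below are shown to let the sites be seen beside the expression values. Of the 10 members, 7 were in the table of RefSeq promoters (GRCm38.p6, 250 bases before to 50 bases after each start), and Nfkb1, Relb and Nfkbiz were not. The NF-kB consensus of 10 bases was searched on both strands, and overlapping matches were kept. It was present in 8.46% of all 32851 promoter windows and in 6 of the 10 windows of the members. These windows belonged to 4 of the 7 members, namely Nfkbia, Tnfaip3, Nfkb2 and Bcl3. The 150 bases before the start are printed 5′ to 3′ on the strand of the gene, with the matches in capitals, for Nfkbia (chr12:55492648-55492797, minus strand), Tnfaip3 (chr10:19015411-19015560, minus strand) and the first of 3 Nfkb2 starts (chr19:46304587-46304736, plus strand).
Nfkbia: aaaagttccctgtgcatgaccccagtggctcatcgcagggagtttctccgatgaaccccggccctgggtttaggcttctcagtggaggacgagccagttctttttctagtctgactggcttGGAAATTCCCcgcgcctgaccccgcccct
Tnfaip3: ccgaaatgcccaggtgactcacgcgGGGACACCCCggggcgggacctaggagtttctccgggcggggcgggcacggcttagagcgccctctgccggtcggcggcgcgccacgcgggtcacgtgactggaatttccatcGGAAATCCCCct
Nfkb2: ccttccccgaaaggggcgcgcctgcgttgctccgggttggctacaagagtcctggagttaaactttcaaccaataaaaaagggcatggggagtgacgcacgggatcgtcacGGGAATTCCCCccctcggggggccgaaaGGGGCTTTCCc
The single Nfkbia match began 29 bases before the start. Tnfaip3 had matches beginning 125 and 12 bases before the start, and none in the window of a second, downstream start. In the Nfkb2 window shown, 2 overlapping matches began 39 and 38 bases and another 11 bases before the start, and the windows of both other Nfkb2 starts held matches too. The match from position 11 to 20 of the middle window is the same site as the only match of the last, 225 bases before its start. The Bcl3 match lay just after the start, from position 3 to 12, and the 30 bases around it (chr7:19822736-19822765, minus strand) are shown for that reason.
Bcl3: agtcggcggcagGGGAAGTCCCgctgcccg
No match was found in the windows of Rela, Nfkbib and Birc3, which says only that the consensus letters are not in these windows. A match describes the sequence and does not show that a factor binds there.

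Sequencing was deep, with total counts per sample from 41542533 to 78498230. Levels are CPM, read counts scaled to a common library size with TMM factors, and differences are log2 fold changes from edgeR's quasi-likelihood test with SE, called at an adjusted p (Benjamini-Hochberg over all genes tested) under 0.05. The study states in general that biological replicates were used, but the sources do not say that the sequenced samples of a group were separate cultures, so p-values measure the spread between these samples, and in bulk RNA fewer cells of a kind cannot be told apart from less RNA per cell. Cxcl5 transcript, counted over the whole gene, stood at 32.7 to 37.4 CPM in 2D Cxcl5-/- and 45.6 to 49.1 CPM in 2D WT, and at 36.6 to 40.2 CPM in rescue Cxcl5-/- against 64.2 to 67.7 CPM in rescue WT, but it was higher in the samples labelled 3D Cxcl5-/- (40.9 to 65.5) than in 3D WT (24.5 to 28.5), so genotypes are given as labelled. Hif1a was 140 to 175.5 CPM in 3D Cxcl5-/- against 336 to 407 CPM in 3D WT, and Myc 9.12 to 11.4 against 33.9 to 36.9 CPM, the same direction as in rescue Cxcl5-/- against rescue WT (Hif1a 134 to 144 against 304 to 324 CPM, Myc 20.02 to 22.3 against 46.1 to 49.3 CPM). Hif1a was 243 to 296 CPM in Hif1aOE Cxcl5-/- against 134 to 144 in rescue Cxcl5-/-, but it was also 241 to 271 CPM in MycOE Cxcl5-/-, while Myc was 397 to 548 CPM in MycOE Cxcl5-/- against 20 to 22.3. The 2 rescue WT libraries stood apart: they had 5.29 and 5.40 counts per kilobase over olfactory and vomeronasal receptor genes, which such cells should not express, against 0.508 to 1.92 in the other rescue libraries, and 27353 and 27506 genes with at least 10 counts against 19732 to 21560. The 3D WT libraries of the culture experiment had 0.927 to 1.56 such counts per kilobase against 0.112 to 0.461 in the others of their table. Spread over the exons of a member, this signal came to at most 5.59% of its counts in any library except for Birc3. Of the epithelial markers, Epcam and Cdh1 averaged at most 0.426 CPM in every 3D group, while Krt8 and Krt18 were abundant. Of 10 macrophage markers, Cd14 averaged 19.3 to 46.7 CPM over the groups, Lyz2 0.892 to 13.6 CPM and Cd68 1.27 to 9.75 CPM, while Tyrobp and Itgam averaged at most 0.295 CPM in every group of the 3 tables.

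In 3D WT cells compared with 2D WT cells, Tnfaip3, Nfkbiz, Bcl3 and Nfkbia had the largest called rises. Of the 10 members, 6 rose and 0 fell, against 22.2% of all 21367 genes tested called higher and 22% called lower, and the median log2 difference of the members was 0.66 against 0.00 over all genes. The genes that rose were Rela, Relb, Nfkbia, Nfkbiz, Bcl3 and Tnfaip3, while Nfkb1 and Nfkb2, which encode the precursor subunits, did not pass the test. 

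Tnfaip3 (chr10:19000910-19015657) encodes the deubiquitinase A20, which shuts down receptor signalling to the IκB kinases. It was at 9.94, 10.2 and 10.1 CPM in 2D WT and at 39.3, 28.3 and 35.0 CPM in 3D WT. The lowest 3D WT sample was far above every 2D WT sample, and the log2 difference of 1.76 ± 0.11 (SE, n = 3 against 3, edgeR adjusted p = 3.93e-08) was a 3.40-fold rise. Nfkbiz (chr16:55811375-55838899), which encodes IκBζ, a nuclear IκB that helps switch on secondary response genes, was at 21.1, 23.6 and 24.1 CPM in 2D WT and 75.1, 68.7 and 71.7 CPM in 3D WT. It rose 3.13-fold, with a log2 difference of 1.65 ± 0.10 (edgeR adjusted p = 1.67e-08). Bcl3 (chr7:19808462-19822770), another nuclear IκB, which works with p50 and p52 dimers, rose from 3.14, 2.76 and 2.96 CPM to 6.09, 5.51 and 6.55 CPM, or 2.05-fold. Nfkbia (chr12:55489410-55492647), the gene of IκBα, the main cytoplasmic inhibitor, was at 34.6, 29.7 and 33.5 CPM in 2D WT and at 66.5, 46.6 and 56.6 CPM in 3D WT, with no overlap between the groups and a 1.74-fold rise (edgeR adjusted p = 0.000196). 

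Among the subunits, Rela (chr19:5637483-5648130), the transactivating subunit of the canonical dimer, rose from 31.8, 27.6 and 29.2 CPM to 43.0, 39.4 and 43.9 CPM, a log2 difference of 0.51 ± 0.10. Relb (chr7:19606217-19629438), which pairs with p52 in the non-canonical pathway, rose from 23.6, 20.1 and 21.8 CPM to 30.3, 25.1 and 27.2 CPM, a log2 difference of 0.34 ± 0.11 (edgeR adjusted p = 0.0257). Both of these smaller rises ended with library totals as the scaling (0.29 for Rela, 0.12 for Relb), and that of Relb also without 2D WT replicate 2 (0.30), 2D WT replicate 3 (0.36) or 3D WT replicate 1 (0.28). Nfkb2 (chr19:46304320-46312385), whose product is processed to p52, was at 111, 105 and 113 CPM in 2D WT and 123, 96.3 and 114 CPM in 3D WT, so the groups overlapped and the log2 difference was 0.01 ± 0.09. Nfkb1 (chr3:135584655-135691547), the gene of the p50 precursor, also overlapped, at 97.5, 74.8 and 83.8 CPM in 2D and 105, 83.9 and 96.5 CPM in 3D. Nfkbib (chr7:28758251-28767512), which encodes the inhibitor IκBβ, did not pass the test either, with a log2 difference of 0.08 ± 0.13. Cell-type markers moved with the culture too: the summed epithelial markers were 547 to 593 CPM in 2D WT and 854 to 1098 CPM in 3D WT, the mesenchymal and fibroblast markers 3995 to 4139 and 6571 to 7419 CPM, and the macrophage markers 28.1 to 32.4 and 42.3 to 46.7 CPM. Of those tested, 5 of 6 epithelial, 6 of 10 mesenchymal and 4 of 5 macrophage markers rose, while 1 epithelial and 1 mesenchymal marker fell. Their part in the result was not tested.

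**Figure D1:**
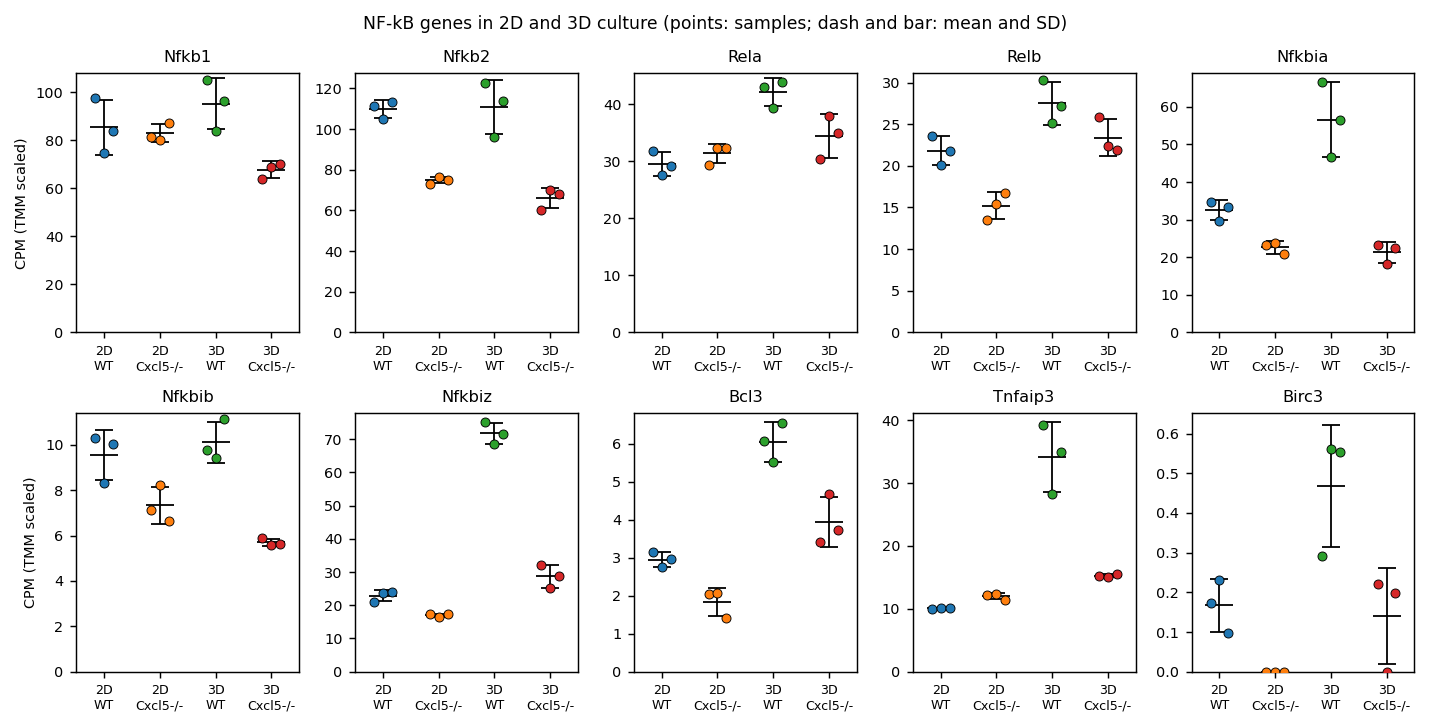
Levels of the 10 genes in CPM (TMM scaled, linear axis from 0) in 2D WT, 2D Cxcl5-/-, 3D WT and 3D Cxcl5-/- samples; points are samples and the dash and bar are the mean and SD of 3 samples. Tnfaip3 and Nfkbiz were highest in the 3 samples of 3D WT (28.3 to 39.3 CPM and 68.7 to 75.1 CPM), and Nfkb2 was lower in the samples labelled Cxcl5-/- in both cultures.

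In 3D, the samples labelled Cxcl5-/- had lower levels of most of these genes than WT. Of the 10 members, 8 fell and 0 rose, against 25.3% of all genes called lower and 19.7% called higher, and the median log2 difference was -0.79 for the members and -0.04 for all 21367 genes. Nfkbia fell most among those with more than a trace of expression, followed by Nfkbiz and Tnfaip3.

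Nfkbia was at 23.2, 18.2 and 22.5 CPM in 3D Cxcl5-/- against 46.6 to 66.5 CPM in 3D WT, a 2.65-fold lower level (log2 difference -1.41 ± 0.13, n = 3 against 3, edgeR adjusted p = 1.69e-06). Nfkbiz was at 32.0, 25.1 and 28.9 CPM, against 68.7 to 75.1 CPM in 3D WT (log2 difference -1.32 ± 0.09, edgeR adjusted p = 1.41e-07). Tnfaip3 was at 15.2, 15.1 and 15.5 CPM, 2.24-fold below 3D WT (log2 difference -1.16 ± 0.11, edgeR adjusted p = 1.94e-06). None of these 3 genes overlapped between the genotypes. Nfkbib was at 5.87, 5.58 and 5.63 CPM, against 9.77, 9.41 and 11.1 CPM in 3D WT (log2 difference -0.83 ± 0.13). Bcl3 was at 3.41, 4.68 and 3.73 CPM, below every 3D WT sample (log2 difference -0.62 ± 0.18, edgeR adjusted p = 0.0134).

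Among the subunits, Nfkb2 was at 60.4, 69.9 and 67.9 CPM in 3D Cxcl5-/-, 1.68-fold below 3D WT (log2 difference -0.75 ± 0.09, edgeR adjusted p = 2.27e-05). Nfkb1 was at 63.7, 69.0 and 70.3 CPM, 1.41-fold below 3D WT (log2 difference -0.49 ± 0.11). Rela was at 30.3, 38.0 and 34.9 CPM, with a log2 difference of -0.29 ± 0.10 (edgeR adjusted p = 0.0238) that turned to 0.11 with library totals, which shifted the all-gene median from -0.04 to 0.35. The Rela call was also lost without 3D WT replicate 3 (-0.29) or 3D Cxcl5-/- replicate 1 (-0.24), without a filter on low counts (-0.20), with at least 10 counts in every sample (-0.19) and with the compared groups alone (-0.25). With library totals the calls of Nfkb1 (-0.10) and Bcl3 (-0.21) ended too, that of Bcl3 also without a filter on low counts (-0.53), and 5 members stayed lower: Nfkb2, Nfkbia, Nfkbib, Nfkbiz and Tnfaip3. Relb, at 25.9, 22.4 and 21.9 CPM, overlapped 3D WT and did not pass the test (log2 difference -0.24 ± 0.11), except without 3D Cxcl5-/- replicate 1 (-0.34, edgeR adjusted p = 0.0311). Cell-type markers moved with the genotype in 3D: the summed level of 9 epithelial markers, mostly Krt8 and Krt18, was 218 to 238 CPM in 3D Cxcl5-/- against 854 to 1098 CPM in 3D WT, with 2 and 0 of the 9 at a count of 0 in every sample, and of the 6 tested 1 rose and 3 fell. Of 10 mesenchymal and fibroblast markers 4 rose and 5 fell, with a sum of 6819 to 9785 CPM in 3D Cxcl5-/- and 6571 to 7419 CPM in 3D WT. Vim, for example, was at 699.9 ± 74.1 CPM against 3809 ± 271 CPM, and Fn1 at 7453 ± 1550 CPM against 3042 ± 310 CPM (SD, n = 3). The part of these markers in the result was not tested. The summed level of 10 macrophage markers was 43.4 to 63.4 CPM in 3D Cxcl5-/- and 42.3 to 46.7 CPM in 3D WT, most of it from Cd14.

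In 2D, several of these genes were also lower in the samples labelled Cxcl5-/- than in WT. A total of 6 members fell and 0 rose, against 3.17% of all genes called lower and 3.86% called higher, with a median log2 difference of -0.48 for the members and -0.02 for all genes. These were Nfkb2, Relb, Nfkbia, Nfkbiz, Bcl3 and Birc3. Nfkb2 was at 73.1, 76.3 and 75.1 CPM, against 105 to 113 CPM in 2D WT (log2 difference -0.55 ± 0.09, edgeR adjusted p = 0.00182). Relb was at 13.5, 15.4 and 16.7 CPM (log2 difference -0.52 ± 0.11), Nfkbia at 23.3, 23.7 and 20.7 CPM (-0.53 ± 0.13) and Nfkbiz at 17.3, 16.5 and 17.3 CPM (-0.43 ± 0.09). In each of these the genotypes did not overlap. Bcl3 was at 2.04, 2.08 and 1.42 CPM (log2 difference -0.68 ± 0.19, edgeR adjusted p = 0.0453), a call that held in 3 of 14 other settings and ended with a replicate block (adjusted p = 0.0584). Tnfaip3 went the other way without passing the test, at 12.2, 12.4 and 11.5 CPM (log2 difference 0.25 ± 0.11, edgeR adjusted p = 0.237). Nfkbib did not overlap between the genotypes but was not called (-0.38 ± 0.13, edgeR adjusted p = 0.111). Nfkb1 (-0.04 ± 0.11) and Rela (0.09 ± 0.10) overlapped. The marker sums did not overlap between the genotypes in 2D: epithelial markers were 449.8 to 484.5 CPM in Cxcl5-/- against 546.9 to 593.2 CPM in WT, mesenchymal and fibroblast markers 2665 to 2958 against 3995 to 4139 CPM, and macrophage markers 48.8 to 49.5 against 28.1 to 32.4 CPM, and their part was not tested. Only the call of Nfkb2 held whichever sample was left out: 2, 3 and 1 members were called without 2D WT replicates 1, 2 and 3, and 1, 1 and 2 without 2D Cxcl5-/- replicates 1, 2 and 3.

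Whether the Cxcl5-/- label went with a larger change in one culture than in the other was tested as an interaction. Among the members, 4 had a lower value in 3D and 0 a higher one, against 16.1% of all genes called lower and 11.1% called higher. The genes were Tnfaip3 (log2 difference -1.42 ± 0.16, edgeR adjusted p = 3e-05), Nfkbiz (-0.90 ± 0.13), Nfkbia (-0.88 ± 0.18) and Nfkb1 (-0.45 ± 0.15). The first 3 kept their calls under all 19 other settings apart from a fold limit. Nfkb1 (edgeR adjusted p = 0.0381) lost its call without 2D WT replicate 2 (-0.41), 2D Cxcl5-/- replicates 1 (-0.42) and 3 (-0.40), 3D WT replicate 1 (-0.42) or 3D Cxcl5-/- replicate 2 (-0.45), and also with library totals (-0.08), without a filter on low counts (-0.37) and with at least 10 counts in every sample (-0.36). Rela came close to the threshold (-0.38 ± 0.14, edgeR adjusted p = 0.0531) and was called by DESeq2 (-0.38, adjusted p = 0.045) and without 2D WT replicate 1 (-0.48), 3D WT replicate 2 (-0.47) or 3D Cxcl5-/- replicate 2 (-0.44). Nfkb2, with an interaction of -0.19 ± 0.13, passed the test only without 3D WT replicate 2 (-0.33, edgeR adjusted p = 0.0476), and Relb (0.29 ± 0.16) only with library totals (0.65). Bcl3 had an interaction of 0.06 ± 0.26, with log2 differences of -0.62 in 3D and -0.68 in 2D. Nfkbib (-0.45 ± 0.18, edgeR adjusted p = 0.0886) did not pass the main test. Neither did Birc3 (4.63 ± 1.88, edgeR adjusted p = 0.0913), which had 0 counts in 2D Cxcl5-/-.

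Within the samples labelled Cxcl5-/-, the rise from 2D to 3D was seen for some of the genes. Here 5 members rose and 2 fell, against 28.7% of all genes called higher and 28.2% called lower. Bcl3 rose by 1.09 ± 0.19 on the log2 scale and Nfkbiz by 0.75 ± 0.09, while Tnfaip3 rose by 0.35 ± 0.11 and Relb by 0.62 ± 0.11. In WT cells the matching log2 differences, measured against other samples, were 1.04 for Bcl3, 1.65 for Nfkbiz, 1.76 for Tnfaip3 and 0.34 for Relb. Nfkbia, at 18.2 to 23.2 CPM in 3D and 20.7 to 23.7 CPM in 2D, did not pass the test (log2 difference -0.08 ± 0.13). Nfkb1 (-0.29 ± 0.11) and Nfkbib (-0.36 ± 0.13) fell, but these calls held in only 5 and 4 of 14 other settings, and both ended with the DESeq2 Wald test (-0.23 and -0.30). The call of Tnfaip3 was lost without 2D Cxcl5-/- replicate 3 (0.32) or 3D Cxcl5-/- replicate 3 (0.32). Beside these changes, the epithelial markers summed to 449.8 to 484.5 CPM in 2D and 218 to 238 CPM in 3D, while 3 of the 6 tested rose and 3 fell. The mesenchymal and fibroblast markers summed to 2665 to 2958 and 6819 to 9785 CPM, with 7 of 10 risen and 2 fallen. Most of the 3D sum was Fn1, at 966 ± 117 CPM in 2D and 7453 ± 1550 CPM in 3D (SD, n = 3). Vim averaged 1645 CPM in 2D and 699.9 CPM in 3D. Of 5 macrophage markers tested, 3 rose and 1 fell. Their part was not tested.

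Birc3 (chr9:7848699-7873186), which encodes cIAP2, a ubiquitin ligase of TNF receptor signalling and a known NF-kB target, was close to absent. Its counts were 9, 16 and 7 in 2D WT, 0 in all 3 samples of 2D Cxcl5-/-, 15, 24 and 30 in 3D WT, and 14, 0 and 13 in 3D Cxcl5-/-. Against a floor of 3 counts per library, its level in 2D Cxcl5-/- was at least 3.60-fold lower than the 2D WT level. That call held in only 5 of 12 other settings apart from a fold limit, and ended, among others, with a replicate block (edgeR adjusted p = 0.0636). Against the same floor Birc3 was at least 3.02-fold higher in 3D Cxcl5-/- than in 2D Cxcl5-/-, although 1 of the 3 samples was at 0 too. The signal expected from the level over olfactory and vomeronasal receptor genes was 4.64 to 7.82 counts in 3D WT. In the rescue table Birc3 had 18 and 30 counts in WT, where 26.5 and 27.1 were expected from that signal, so its call there (at least 8.52-fold lower in Cxcl5-/-) rests on counts at the background of these libraries. The rescue call of Birc3 held in 5 of 11 other settings apart from a fold limit. It was at 0 in both rescue Cxcl5-/- samples and in all 3 MycOE Cxcl5-/- samples, and at 0, 3 and 11 counts in Hif1aOE Cxcl5-/-.

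Compared per kilobase of merged exons, which corrects for gene length but takes every annotated transcript into the length, the order of levels changed from 2D to 3D in WT cells. In 2D WT, Nfkb2 stood first with 23.97 ± 0.93 CPM per kilobase (SD, n = 3), followed by Nfkbia with 20.2 ± 1.60, Rela with 9.61 ± 0.69 and Nfkb1 with 7.08 ± 0.95. Below them, Relb (5.62 ± 0.45), Nfkbiz (4.57 ± 0.32) and Nfkbib (4.40 ± 0.50) stood above Tnfaip3 (1.39 ± 0.02), Bcl3 (1.19 ± 0.08) and Birc3 (0.0333 ± 0.0133). Nfkbiz and Nfkbib did not differ beyond their spread. In 3D WT, Nfkbia stood first with 35.1 ± 6.20 CPM per kilobase, then Nfkb2 with 24.2 ± 2.92, Nfkbiz with 14.3 ± 0.65 and Rela with 13.7 ± 0.79. Nfkbiz and Rela did not differ beyond their spread, and neither did Nfkb1 (7.89 ± 0.88) and Relb (7.09 ± 0.67) or Tnfaip3 (4.73 ± 0.77) and Nfkbib (4.66 ± 0.42). In 3D Cxcl5-/-, Nfkb2 (14.4 ± 1.10) and Nfkbia (13.2 ± 1.69) overlapped. Exons of Nfkb2, Nfkbib and Bcl3 overlap those of genes on the opposite strand, and it is not stated whether the counting used the strand of these stranded libraries.

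The rescue experiment, which shares no samples with the culture experiment, gave a further comparison of 3D-cultured cells labelled Cxcl5-/- with WT. There 6 members fell and 0 rose, against 24.3% of all 28730 genes called lower and 17.6% called higher, and the median log2 difference was -0.57 for the members and -0.30 for all genes. The median of all genes depended on weakly counted genes, at -0.01 over the 16095 genes with at least 10 counts in every sample and -1.18 without a filter. Of those 16095 genes, 4463 were called higher and 4747 lower. Birc3 passed the filter only through the rescue WT libraries: when these were left out of the filter, 5 of the 9 members that passed had fallen, against 22% of the 23299 genes. Nfkbia was at 13.8 and 14.9 CPM in rescue Cxcl5-/- against 39.0 and 40.8 CPM in rescue WT, 2.78-fold lower (log2 difference -1.48 ± 0.09, n = 2 against 2, edgeR adjusted p = 5.9e-07). Tnfaip3 was at 13.0 and 10.3 CPM against 23.3 and 28.5 CPM (log2 difference -1.15 ± 0.16, edgeR adjusted p = 0.000148). In both genes the Cxcl5-/- samples were well below the WT samples. Nfkbib was at 6.47 and 7.57 CPM against 17.4 and 19.7 CPM (log2 difference -1.40 ± 0.26), and Nfkbiz at 34.6 and 38.4 CPM against 57.7 and 61.7 CPM (-0.71 ± 0.09). Nfkb2, at 63.5 and 63.8 CPM against 82.6 and 88.4 CPM, fell by 0.43 on the log2 scale (SE 0.09, edgeR adjusted p = 0.00422), a call lost without rescue WT replicate 2 (-0.37, edgeR adjusted p = 0.053). 

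The subunits Nfkb1 and Rela did not pass the test there. Nfkb1 was at 82.1 and 74.4 CPM in rescue Cxcl5-/- and 80.0 and 75.6 CPM in rescue WT (log2 difference 0.01 ± 0.08), and Rela at 45.0 and 50.7 against 48.1 and 45.3 CPM (0.03 ± 0.11). Relb, at 19.4 and 18.4 against 15.5 and 17.1 CPM, had a value above 0 (0.21 ± 0.10) where the culture experiment had one below 0. Bcl3 did not pass the test (-0.36 ± 0.20). Nfkb2, Nfkbia, Nfkbib, Nfkbiz and Tnfaip3 fell in both experiments. The members called in both were these 5, of which 5 had the same direction, and over all 21058 genes tested in both, 6392 were called in both, of which 95.9% had the same direction. The summed epithelial markers again moved with the genotype, at 288 to 303 CPM in rescue Cxcl5-/- and 858 to 904 CPM in rescue WT, with 1 and 0 of the 9 markers at a count of 0 in every sample. The 10 mesenchymal and fibroblast markers summed to 13380 to 13400 CPM in rescue Cxcl5-/- and 7878 to 8022 CPM in rescue WT, with 7 risen and 1 fallen. Most of this sum was Fn1, at 12330 CPM in rescue Cxcl5-/- and 4522 CPM in rescue WT. Vim went against the sum, at 556 CPM in rescue Cxcl5-/- and 3339 CPM in rescue WT. The macrophage markers summed to 34.5 to 34.8 and 43.6 to 43.75 CPM (1 of 7 tested rose and 3 fell), and 3 of 4 endothelial markers fell. When the rescue WT libraries were left out of the filter, 1 of 5 macrophage markers rose and 2 fell, and 2 of 3 endothelial markers fell. Endothelial markers had 15 to 75 counts each in rescue WT, and the macrophage marker Adgre1 21 to 33. These libraries had the high signal over olfactory and vomeronasal receptor genes, and the changed filter leaves that signal in the marker values. The part of these genes in the result was not tested.

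**Figure D2:**
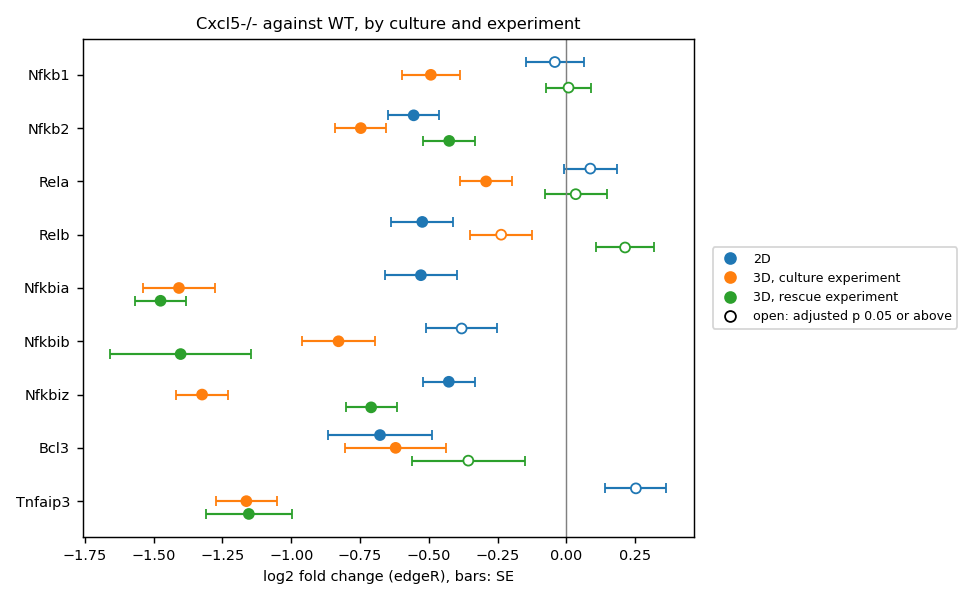
Log2 fold changes (edgeR, bars SE) of samples labelled Cxcl5-/- against WT in 2D, in 3D in the culture experiment and in 3D in the rescue experiment, without Birc3, which was near 0 counts; filled points were called. Nfkbia, Nfkbib, Nfkbiz, Tnfaip3 and Nfkb2 fell in 3D in both experiments, while Tnfaip3 had a value above 0 in 2D (0.25).

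Overexpression of Hif1a or Myc was tested against rescue Cxcl5-/- to ask which genes changed when either factor was overexpressed in cells labelled Cxcl5-/-. Myc transcript averaged 490.2 CPM in MycOE Cxcl5-/- against 47.7 CPM in rescue WT. Hif1a transcript averaged 265.7 CPM in Hif1aOE Cxcl5-/- and 258.2 CPM in MycOE Cxcl5-/-. Both were above rescue Cxcl5-/- (138.7 CPM) and below rescue WT (313.8 CPM), so Hif1a transcript was raised to a similar level in the Myc line. With Hif1a, 6 of the 10 members rose and 0 fell, against 20.5% of all genes called higher and 15% called lower, with a median log2 difference of 0.54 for the members and 0.16 for all genes. With Myc, 3 rose and 1 fell, against 21.6% called higher and 18% called lower, with medians of 0.06 and 0.11. These shares include weakly counted genes. Over the 16095 genes with at least 10 counts in every sample, 4948 were called higher and 4698 lower with Hif1a, and 5132 and 5273 with Myc. Both comparisons use the same 2 rescue Cxcl5-/- samples, so they are given side by side. Markers moved as well, and their part was not tested: with Hif1a the epithelial sum was 707 to 839 CPM (4 of 8 tested rose and 1 fell) against 288 to 303 CPM in rescue Cxcl5-/-, and the mesenchymal and fibroblast sum 5327 to 6971 CPM (1 of 10 rose and 7 fell) against 13380 to 13400 CPM. With Myc these sums were 268 to 313 CPM (2 of 8 rose) and 3413 to 3804 CPM (2 of 10 rose and 5 fell). Most of the mesenchymal sums was Fn1, at 12330 CPM in rescue Cxcl5-/-, 5283 CPM with Hif1a and 2227 CPM with Myc. The macrophage markers summed to 44.9 to 63.2 CPM with Hif1a (2 of 7 tested rose) and 60.2 to 76.7 CPM with Myc (2 rose and 1 fell) against 34.5 to 34.8 CPM in rescue Cxcl5-/-.

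Nfkbia was at 26.0, 27.8 and 27.8 CPM in Hif1aOE Cxcl5-/-, a log2 rise of 0.92 ± 0.08 (n = 3 against 2, edgeR adjusted p = 9.38e-06), and at 32.8, 32.8 and 34.0 CPM in MycOE Cxcl5-/-, a rise of 1.21 ± 0.09 (edgeR adjusted p = 1.16e-06). Both groups lay above the 2 rescue Cxcl5-/- samples and below the 2 rescue WT samples. Tnfaip3 was at 25.6, 20.1 and 20.6 CPM with Hif1a (log2 rise 0.93 ± 0.14) and at 26.0, 25.9 and 27.1 CPM with Myc (1.18 ± 0.15), against 10.3 to 13.0 CPM in rescue Cxcl5-/-. With Myc its 3 samples lay between the 2 rescue WT samples. Nfkbib was at 9.92, 16.2 and 12.2 CPM with Hif1a (log2 rise 0.86 ± 0.24) and at 14.0, 12.6 and 8.49 CPM with Myc (0.73 ± 0.24), a wide spread. The Hif1a call of Nfkbib was lost without rescue Cxcl5-/- replicate 1 (0.77). Its Myc call held in only 7 of 13 other settings. It was lost, among others, without either rescue Cxcl5-/- sample (0.64 and 0.86), without MycOE Cxcl5-/- replicate 1 (0.58) or without replicate 2 (0.69).

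Nfkb2, Nfkbiz and Relb rose with Hif1a but did not pass the test with Myc. Nfkb2 was at 97.9, 96.9 and 99.8 CPM in Hif1aOE Cxcl5-/-, above both rescue WT samples (log2 rise 0.63 ± 0.09, edgeR adjusted p = 0.000181), and at 64.8, 54.0 and 58.8 CPM in MycOE Cxcl5-/-, overlapping rescue Cxcl5-/- (log2 difference -0.10 ± 0.09). Nfkbiz was at 48.8 to 50.8 CPM in the 3 samples with Hif1a (log2 rise 0.45 ± 0.09) and at 31.4, 35.2 and 33.3 CPM with Myc (log2 difference -0.13 ± 0.08). Relb was at 25.7, 23.8 and 27.2 CPM with Hif1a (log2 rise 0.43 ± 0.10) and at 20.5, 20.5 and 20.9 CPM with Myc (log2 difference 0.12 ± 0.10). The calls of Nfkbiz and Relb with Hif1a ended with library totals (0.23 and 0.21), and that of Relb also without rescue Cxcl5-/- replicate 2 (0.40). Rela was at 49.8, 51.1 and 51.3 CPM with Hif1a (log2 difference 0.08 ± 0.10) and at 38.9, 31.1 and 33.0 CPM with Myc, below both rescue Cxcl5-/- samples, a fall of -0.48 ± 0.10 that was not called without rescue Cxcl5-/- replicate 2 (-0.38). Nfkb1 stayed between 73.9 and 82.5 CPM in both, and Bcl3 between 4.34 and 6.83 CPM, neither called. With library totals the Myc comparison had 2 members higher and 4 lower, since Nfkb1 (-0.39), Nfkb2 (-0.44) and Nfkbiz (-0.47) were then called and Nfkbib (0.39) was not. 

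The direct comparison of MycOE Cxcl5-/- with Hif1aOE Cxcl5-/- tested these differences. In all, 1 member was higher with Myc and 4 were lower, against 9.54% of all genes called higher and 9.73% called lower. Over the 16095 genes with at least 10 counts in every sample, 2878 were called higher and 2819 lower. Nfkb2 (log2 difference -0.73 ± 0.08, n = 3 against 3, edgeR adjusted p = 5.49e-05), Nfkbiz (-0.58 ± 0.08, edgeR adjusted p = 0.000258) and Rela (-0.56 ± 0.09, edgeR adjusted p = 0.00117) were lower with Myc, and these 3 calls held under every other setting but a fold limit. Relb was lower by a smaller amount (-0.31 ± 0.08, edgeR adjusted p = 0.0246), and its call was lost without Hif1aOE replicate 1 (-0.31) or 3 (-0.26) and without MycOE replicate 1 (-0.31), 2 (-0.30) or 3 (-0.32). Nfkbia was higher with Myc (0.29 ± 0.07), a call lost without Hif1aOE replicate 1 (0.26) and with library totals (0.18). The value of Tnfaip3 (0.25 ± 0.12, edgeR adjusted p = 0.197) did not pass the test. The epithelial and the mesenchymal sums of these groups, given above, did not overlap either, and 1 and 3 of the 9 epithelial markers were at a count of 0 in every sample with Hif1a and with Myc.

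**Figure D3:**
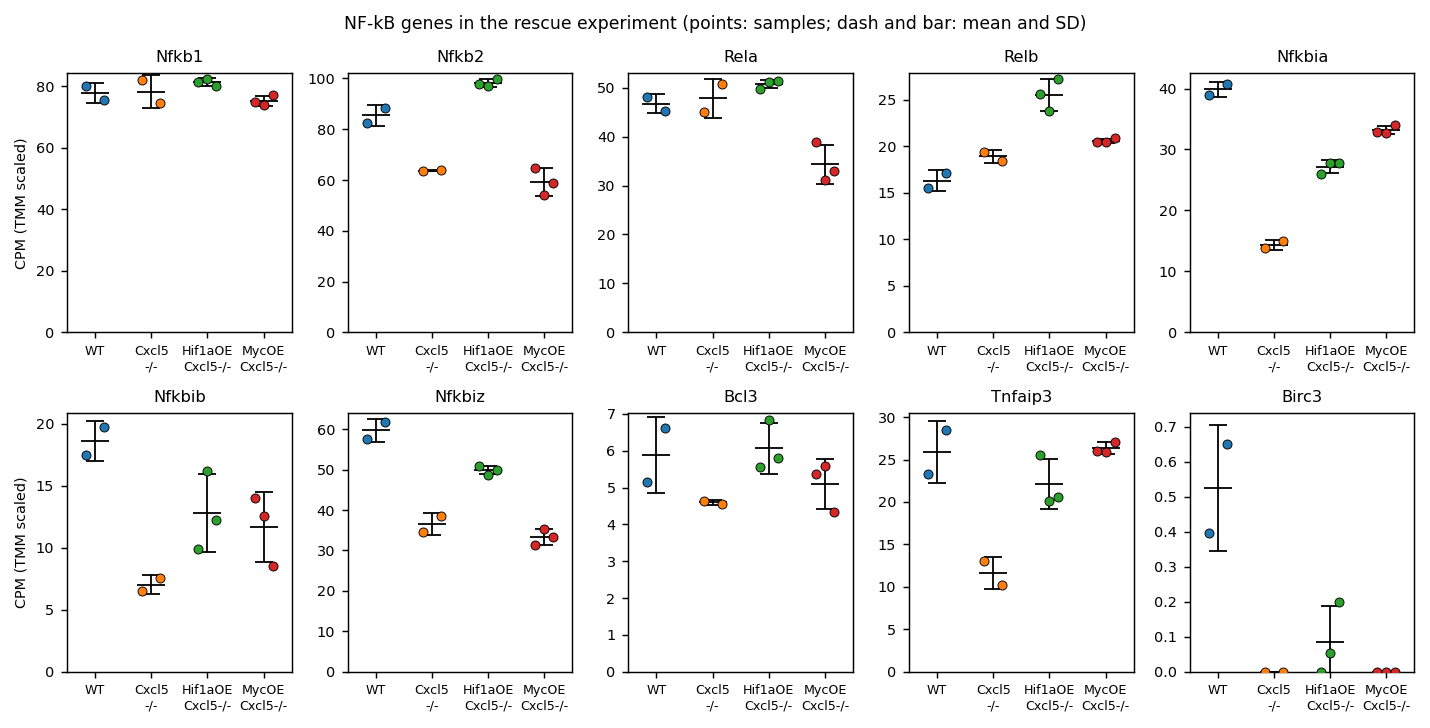
Levels of the 10 genes in CPM (TMM scaled, linear axis from 0) in rescue WT, rescue Cxcl5-/-, Hif1aOE Cxcl5-/- and MycOE Cxcl5-/- samples; points are samples and the dash and bar are the mean and SD of 2 or 3 samples. Nfkb2 was at 96.9 to 99.8 CPM with Hif1a and 54.0 to 64.8 CPM with Myc, while Nfkbia and Tnfaip3 were above rescue Cxcl5-/- with either factor.

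**Figure D4:**
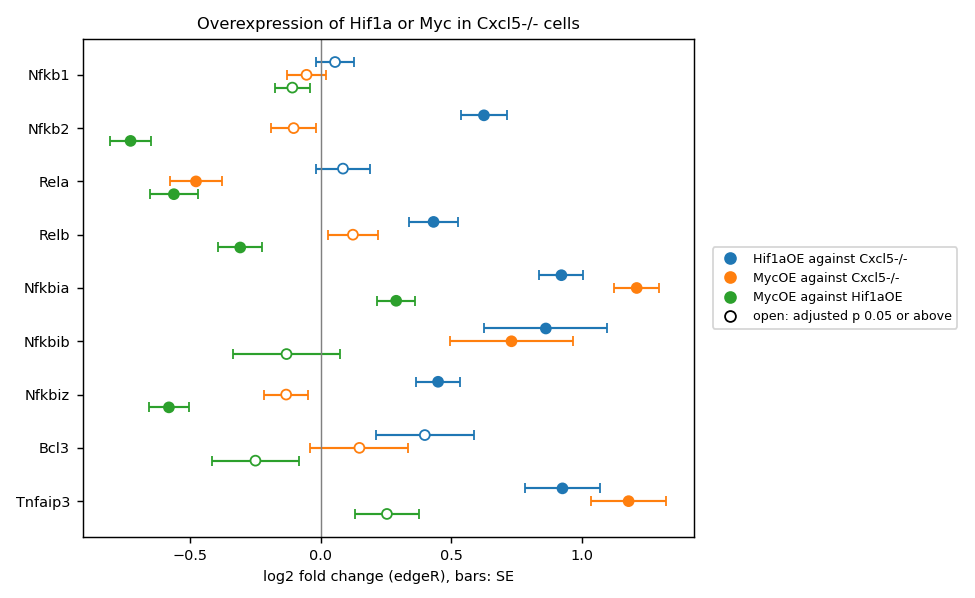
Log2 fold changes (edgeR, bars SE) of Hif1aOE and MycOE Cxcl5-/- against rescue Cxcl5-/- and of MycOE against Hif1aOE Cxcl5-/-, without Birc3; filled points were called. Nfkbia and Tnfaip3 rose with both factors, and Nfkb2, Nfkbiz and Rela were lower with Myc than with Hif1a.

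Conditioned medium gave no called member in edgeR. M1-CM was compared with Ctrl to ask how medium from stimulated macrophages acts on the spheroids, and edgeR called 0 of the 10 members, against 0.0156% of 19207 genes called higher and 0% called lower. Against Ctrl, L929 supernatant in the medium cannot be told apart from macrophage products, and M0-CM holds this supernatant too. At an unadjusted p under 0.05, 5 members were higher and 0 were lower, against 3.05% and 1.65% of all genes at the same unadjusted threshold, and the median log2 difference was 0.43 for the members and 0.02 for all genes. Bcl3 had the largest value. It was at 2.07, 2.23 and 2.92 CPM in Ctrl and at 5.83, 10.2 and 5.38 CPM in M1-CM, with a log2 difference of 1.57 ± 0.34 (edgeR adjusted p = 0.458). The lowest M1-CM sample was above every Ctrl sample, and DESeq2 called Bcl3 as its 1 member (1.58, adjusted p = 0.00714), while its adjusted p in the other settings ran up to 1. Nfkb1 was at 105, 106 and 103 CPM in Ctrl and 124, 156 and 142 CPM in M1-CM (log2 difference 0.43 ± 0.13, edgeR adjusted p = 0.872). Nfkbiz was at 57.4, 26.1 and 60.0 CPM in Ctrl and 65.5, 107 and 79.9 CPM in M1-CM (log2 difference 0.82 ± 0.31). The M1-CM samples were spread widely but stayed above the Ctrl samples. Relb (0.43 ± 0.14) and Nfkbia (0.52 ± 0.21) also did not overlap between M1-CM and Ctrl. Tnfaip3, at 21.9, 7.28 and 18.2 CPM in Ctrl and 19.4, 30.8 and 24 CPM in M1-CM, did overlap. Nfkb2 (0.14 ± 0.13), Rela (0.05 ± 0.20) and Nfkbib (0.07 ± 0.27) overlapped too, and so did Birc3, at trace counts. M1-CM replicate 2 held the highest value of Bcl3, Nfkb1, Nfkbiz and Tnfaip3. It also had the lowest total count of this experiment (43875429). Its signal over olfactory and vomeronasal receptor genes was 0.535 counts per kilobase, against 0.272 to 0.44 in the other libraries of this experiment.

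Against M0-CM, edgeR and DESeq2 each called 0 of the 10 members in M1-CM, with 0.0156% of all genes called higher and 0% called lower by edgeR, and 2 members were higher and 0 lower at an unadjusted p under 0.05, against 1.61% and 0.984% of all genes. These were Bcl3, at 3.04, 2.04 and 3.62 CPM in M0-CM (log2 difference 1.30 ± 0.34), and Nfkb1, at 103, 107 and 104 CPM in M0-CM (0.42 ± 0.13). M0-CM compared with Ctrl gave 0 called members with edgeR and with DESeq2, with 0% of all genes called higher and 0% called lower by edgeR, and 1 member was higher at an unadjusted p under 0.05, against 2.15% of all genes. It was Nfkbia, at 55.6, 67.1 and 74.7 CPM in M0-CM against 41.2, 42.8 and 53.3 CPM in Ctrl (log2 difference 0.52 ± 0.21). Nfkbia was at 54.9, 54.7 and 87.3 CPM in M1-CM, on both sides of the M0-CM samples. The 3 comparisons share samples, and the SE of 0.13 to 0.35 for the members other than Birc3 sets the size of change that could be seen.

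**Figure D5:**
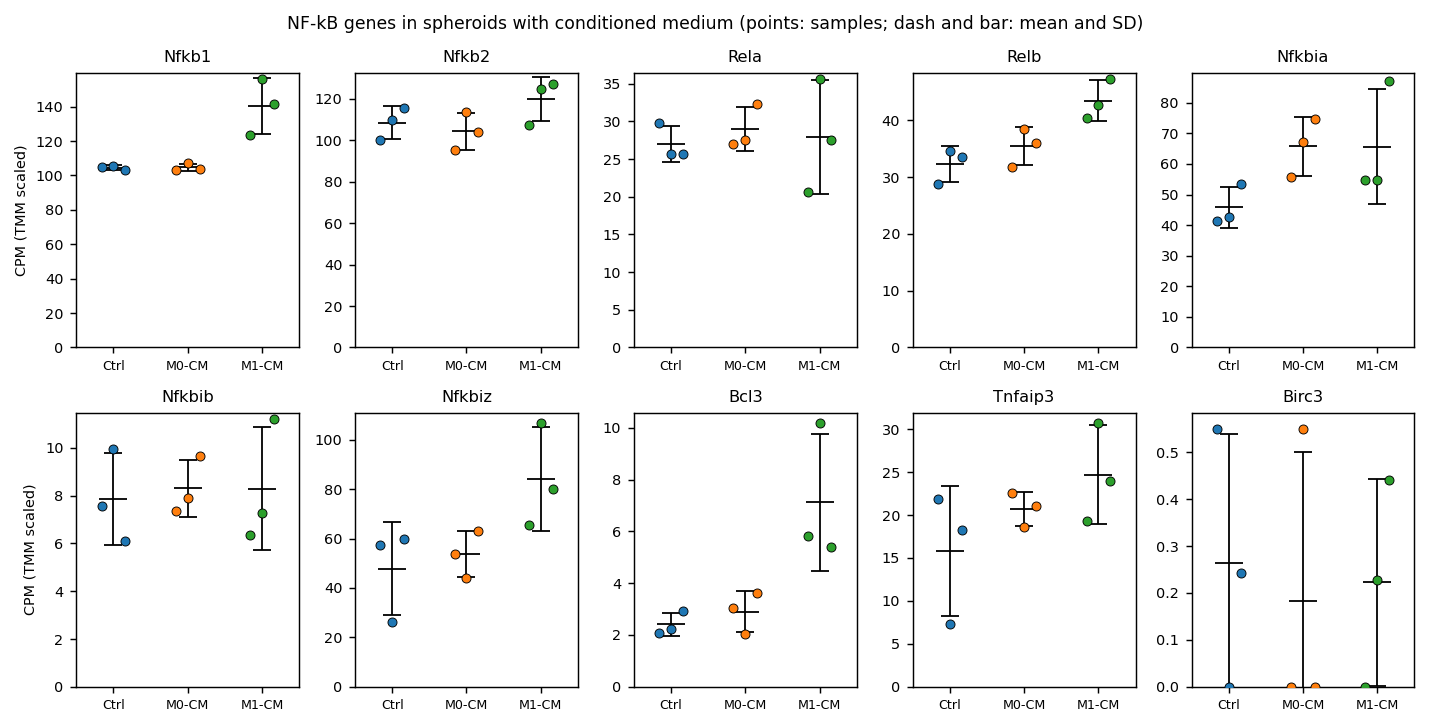
Levels of the 10 genes in CPM (TMM scaled, linear axis from 0) in spheroids with control medium (Ctrl), M0-CM and M1-CM; points are samples and the dash and bar are the mean and SD of 3 samples. Bcl3 was at 5.38 to 10.2 CPM in M1-CM and at 2.04 to 3.62 CPM in the other samples, without a called difference in edgeR.

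The other genes of the pathway, grouped in lists by role, changed in both directions in several comparisons. Their counts are to be read against the shares of all genes called, which were 19.7% higher and 25.3% lower in 3D Cxcl5-/- against WT, 17.6% and 24.3% in the rescue experiment, 22.2% and 22% in 3D WT against 2D WT, 20.5% and 15% with Hif1a, and 21.6% and 18% with Myc. The shares were 3.86% and 3.17% in 2D Cxcl5-/- against 2D WT, and 28.7% and 28.2% in 3D against 2D Cxcl5-/-. With Myc against Hif1a they were 9.54% and 9.73%. Of 3 further family genes (Rel, Nfkbie and Nfkbid), 0 were called in 3D Cxcl5-/- against 3D WT and 1 fell in 2D, Nfkbie, the gene of IκBε (log2 difference -0.98 ± 0.12). In rescue Cxcl5-/- against rescue WT 1 of the 3 fell, and in 3D against 2D Cxcl5-/- 2 rose. Nfkbie rose with Hif1a (0.87 ± 0.11) and by less with Myc (0.37 ± 0.11), and it was lower with Myc than with Hif1a (-0.50 ± 0.09). Rel, the gene of the subunit c-Rel, fell with Hif1a (-0.54 ± 0.16) and with Myc (-0.45 ± 0.16). Of 12 genes of the IκB kinase complex and its activating kinases, 3 rose and 3 fell in 3D Cxcl5-/- against WT (median 0.13), near the share of all genes, and 6 rose and 1 fell in rescue Cxcl5-/- against WT (median 0.37). Ikbkg, which encodes the regulatory subunit NEMO, rose in both (0.48 ± 0.09 and 1.39 ± 0.08), and it fell with Hif1a (-1.04 ± 0.07) and Myc (-1.35 ± 0.07). With Hif1a 1 of the 12 rose and 3 fell, and with Myc 1 rose and 6 fell. 

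Of 14 receptor adaptors and ubiquitin ligases, 4 rose and 7 fell in 3D Cxcl5-/- against WT (median -0.23), and 5 rose and 1 fell in the rescue experiment (median 0.16). Traf1, an adaptor of TNF receptors whose gene is a known NF-kB target, fell in both, from 4.35 ± 1.24 to 0.588 ± 0.066 CPM (SD, n = 3; log2 difference -2.88 ± 0.42) and from 4.04 ± 0.21 to 0.350 ± 0.093 CPM (n = 2; -3.52 ± 0.41). It rose with Hif1a (2.06 ± 0.38) and with Myc (2.37 ± 0.39). Btrc, the substrate receptor of the ligase that marks IκB for destruction, rose in 3D Cxcl5-/- in both experiments (0.90 ± 0.08 and 1.01 ± 0.10). Of 12 tested of the 13 other brakes, 1 rose and 7 fell in 3D Cxcl5-/- against WT (median -0.24), with 1 risen and 3 fallen of 13 in the rescue experiment. Tnip3, a partner of A20, fell from 5.10 ± 0.40 to 0.786 ± 0.180 CPM in 3D (log2 difference -2.69 ± 0.27). In 3D WT against 2D WT the lists moved both ways, with 4 risen and 3 fallen kinases, 4 and 4 adaptors of 14, and 3 and 4 brakes of 12, and Tnip3 rose by 1.81 ± 0.26.

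Of the 31 inflammatory target genes, 22 were tested in the culture table: 12 rose and 7 fell in 3D WT against 2D WT (median 0.99), and 5 rose and 9 fell in 3D Cxcl5-/- against 3D WT (median -0.44). Cxcl5, the gene targeted in Cxcl5-/- cells, is itself on this list and was not left out of the counts. Ptgs2, the inducible cyclooxygenase, was at 60.7 ± 4.05 CPM in 3D Cxcl5-/- against 953 ± 83.8 CPM in 3D WT (log2 difference -3.97 ± 0.10), and Ier3, an early response gene, at 34.1 ± 6.83 against 255 ± 31.4 CPM (-2.90 ± 0.17). C3, a complement gene, moved the other way and rose by 3.53 ± 0.14 on the log2 scale. In rescue Cxcl5-/- against WT, 1 of the 28 tested rose and 17 fell (median -1.87), the same counts as when the rescue WT libraries were left out of the filter on low counts, where the median of all genes was 0.00, and Ptgs2 (-4.14 ± 0.14) and Ier3 (-3.56 ± 0.13) fell again. With Hif1a 12 of 28 rose, led by Ccl2, a monocyte chemokine (3.39 ± 0.20), and with Myc 10 of 28 rose, among them Ier3 (2.18 ± 0.12). The 4 and 3 that fell were no larger a share than that of all genes. With M1-CM, 3 of 23 tested rose against Ctrl: Lcn2 (48.2 ± 24.4 CPM against 0.0466 ± 0.0807 CPM), C3 (log2 difference 4.11 ± 0.42) and Cxcl5 (2.76 ± 0.17). No other gene of all 19207 was called higher by edgeR. The list was chosen with earlier results of these data known, so finding the called genes on it is not an independent result.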

How the data were processed

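The authors made stranded total RNA libraries, aligned the read pairs to GRCm38 with HISAT2, counted genes with StringTie and deposited the counts without normalization. Versions, the annotation release and the use of strand in counting are not given in the sources used here. Groups follow the condition each label states.

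Tests used edgeR 4.0.16 (with limma 3.58.1 in R 4.3.3): its quasi-likelihood method after TMM scaling and filterByExpr, with 1 fit per table over every group. P-values were adjusted by Benjamini and Hochberg over all genes tested, and an adjusted p under 0.05 was called. Each SE was obtained from the log2 fold change and the F statistic (the change over the root of F). Where no sample of a group exceeded 3 counts, the fold is a bound against a floor of 3 counts per library. The members and the gene lists were chosen with earlier results of these data known, so no p-value was adjusted over a list alone. The 10 members are reported with values, though not every member in every comparison. Of each other list at most the 3 called genes with the largest change per comparison, with groups that do not overlap and a mean count of at least 50, were open to naming, of which the text names part. Tests were checked on simulated data.

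Exon lengths and gene coordinates came from GENCODE vM21 (GRCm38), matched by gene identifier, and promoters from RefSeq. Total counts of 41542533 or more per sample give the depth, and precision is given by the SD and SE. Background was taken as counts per kilobase of exon over genes of olfactory and vomeronasal receptors. Alternatives were DESeq2 1.42.0, its size factors or library totals within edgeR, no filter, a minimum of 10 counts per sample, a fit of the compared groups alone, a replicate block, leaving out single samples, summing the entries that share a symbol, and a fold limit beside the adjusted p. For the rescue lists, a filter without the rescue WT libraries was added after seeing the data. The marker lists were macrophage, epithelial, mesenchymal and fibroblast, and endothelial genes; endothelial markers summed to at most 3.50 CPM and mesenchymal and fibroblast markers to at least 2665 CPM in every sample. Tables were read with pandas and figures drawn with matplotlib.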

Additional observations from a re-analysis of the deposited data

Results flagged for a closer look

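In 4 genes, results stood out because the effect of the Cxcl5-/- label differed between 3D and 2D culture by a test of the difference itself. The genotype effect in 3D minus that in 2D was -1.42 on the log2 scale for Tnfaip3, -0.90 for Nfkbiz, -0.88 for Nfkbia and -0.45 for Nfkb1. Tnfaip3 had a value above 0 in 2D (0.25, not called) and fell in 3D (-1.16), Nfkbiz and Nfkbia fell in both cultures and by more in 3D, and Nfkb1 fell in 3D (-0.49) with a value near 0 in 2D (-0.04). The Nfkb1 result held in 11 of 19 other settings and had no counterpart in the rescue experiment, where only 3D was sampled and Nfkb1 was at 0.01. No group had the 4 samples needed to test for a single sample far from the others.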

How the results depend on the processing

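Of 120 member values, 52 were called, and 29 of these calls held under every alternative other than a fold limit. They include Nfkbia, Nfkbiz and Tnfaip3 in 3D WT against 2D WT, in 3D Cxcl5-/- against 3D WT, in the interaction and in rescue Cxcl5-/- against rescue WT. Of the 68 values that were not called, 57 were called in no alternative. Values called in neither fit changed sign 80 times, in 30 results. One called value reversed, Rela in 3D Cxcl5-/- against 3D WT, from -0.29 to 0.11 with library totals, a scaling that also moved the median of all genes there from -0.04 to 0.35, in the interaction from -0.05 to 0.32, between the WT cultures from 0.00 to -0.21, and with Myc against rescue Cxcl5-/- from 0.11 to -0.11; the share of calls that were higher moved from 43.9% to 75.8%, 40.9% to 77.1%, 50.2% to 34.7% and 54.6% to 36.3%. With Hif1a it moved from 57.8% to 43.6% and with Myc against Hif1a from 49.5% to 36.1%. With library totals 5 members were called in 3D Cxcl5-/- against WT, and 8 in the main test. DESeq2 called 1 member with M1-CM against Ctrl, and 97, 32 and 17 of all genes with M1-CM against Ctrl, M1-CM against M0-CM and M0-CM against Ctrl, where edgeR called 3, 3 and 0. A fold limit of 1 on the log2 scale, by its own construction, left 3 members in 3D WT against 2D WT, 1 in 2D Cxcl5-/- against 2D WT, 3 in 3D Cxcl5-/- against 3D WT, 2 in 3D Cxcl5-/- against 2D Cxcl5-/-, 1 in the interaction, 0 with Hif1a, 2 with Myc and 0 with Myc against Hif1a. With each sample left out in turn, 1 to 3 members were called in 2D Cxcl5-/- against 2D WT, 2 to 4 with Myc and 3 to 5 with Myc against Hif1a, where the main counts were 6, 4 and 5; fewer samples were then tested. In the other comparisons these counts stayed within 1.5 times the main count, at 5 to 6 for 3D WT against 2D WT and 7 to 8 for 3D Cxcl5-/- against 3D WT. Same-numbered samples did not deviate together in every pair: 3 of 9 pairs had r over 0.1 in the conditioned-medium table (-0.236 to 0.359, with Ctrl and M0-CM at 0.359, 0.246 and 0.0714), 1 of 18 in the culture table and 0 of 13 in the rescue table, so the numbers were not taken to pair samples, and the replicate block ended the calls of Bcl3 (-0.68) and Birc3 in 2D Cxcl5-/- against 2D WT and of Birc3 in rescue Cxcl5-/- against rescue WT and changed no other member call. Other causes were not tested. Birc3, at 0 to 34 counts, was at the limit of depth.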
